A study of Caenorhabditis elegans with 4 samples.

Results

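The meiotic chromosome genes described here are 40 genes of Caenorhabditis elegans, set against the MRG-1 peaks that lie over them. They were taken from a fixed list of symbols, covering the chromosome axis, the synaptonemal complex, cohesin, double-strand breaks, crossovers and homologue pairing, out of 19971 protein-coding nuclear genes. All 40 matched the gene table by symbol, and all lie on autosomes: 9 on chromosome I, 4 on II, 5 on III, 12 on IV and 10 on V. The study mapped MRG-1 by chromatin immunoprecipitation and sequencing (ChIP-seq) in adult worms. There were 2 MRG-1 ChIP samples and 2 input samples of genomic DNA. Every sample, inputs included, came from hermaphrodites of the strain fem-2(b245), which carries that allele on chromosome III, kept at 20 °C. fem-2 acts in male sex determination and in the switch to sperm production, and b245 is a temperature-sensitive allele. The labelled stage is a young adult that has a germline, whereas the growth protocol describes gravid adults. Chromatin was made from whole worms, so germline and soma cannot be told apart in these peaks. The inputs are not analysed here as separate values.

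MRG-1 is a chromodomain protein, the worm counterpart of MRG15, and is needed for a normal germline. In meiosis, homologous chromosomes find each other at pairing centres, are held together along a protein axis by the synaptonemal complex, and exchange DNA after programmed double-strand breaks are repaired as crossovers. In the worm these steps run side by side along the length of the adult gonad, and the genes that carry them out are known chiefly for their action in germ cells.

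Peaks were given as 3 lists on genome build WS220: 2769 peaks over 16.7 Mb in ChIP replicate 1, 3895 peaks over 13.1 Mb in ChIP replicate 2 and 12147 peaks over 14.8 Mb in a list for the whole series. The lists hold no read counts, so the depth is unknown, and nothing in the labels tells whether the replicates are separate cultures. A gene was called marked where a peak met its span by at least 1 bp. Gene spans came from a WBcel235 gene table and were set against the WS220 peaks on the premise that positions differ by no more than about 200 bp. Widening or narrowing every span by 200 bp at each end changed 0 of the members' marks in any list. The replicate lists stood apart in places: 81 runs of strong replicate 2 peaks, 1334 kb in all, held no replicate 1 peak. Such runs met 2 members, mus-81 and dsb-2, and 2.76% of the other protein-coding genes of the autosomes. The reverse case, strong replicate 1 peaks without a replicate 2 peak, was not counted.

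Nearly every meiotic chromosome gene lay under MRG-1 peaks. In replicate 1, 36 of the 40 were marked (90.0%), against 33.5% of the 17201 other protein-coding genes of chromosomes I to V. In replicate 2, 36 were marked as well (90.0%), against 32.2%. The mean over the replicates was 90.0% ± 0 (SD, n = 2) for the members and 32.8% ± 0.913 (SD, n = 2) for the other genes. The series-wide list marked all 40, against 36.3%. Both replicates marked 33 members (82.5%), against 28.0% of the other genes. Replicate 1 alone marked syp-4, him-8 and lab-1, replicate 2 alone marked him-1, dsb-2 and mus-81, and spo-11 was marked in neither. Among the other genes, 5.48% were marked in replicate 1 alone, 4.19% in replicate 2 alone and 62.3% in neither. The design has 1 ChIP group and no input values, so no test between groups exists, and the shares are set beside each other with no test.

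Peaks covered most of the length of most members. The median member had 100% of its span under peaks in replicate 1 and 98.0% in replicate 2. The median of the other genes was 0% in both, as 62.3% of them were marked in neither replicate. Among genes marked in at least 1 replicate, coverage was averaged over the replicates. Its median was then 98.0% for 39 members and 74.9% for 6480 other genes. At least 50% of the span was covered in both replicates for 31 members (77.5%), against 19.5% of the other genes. The whole span was covered in both for 19 members (47.5%), against 12.6%. Members were longer than other genes, with a median span of 2663 bp against 1944 bp, and a longer span meets a peak more readily but is less readily covered whole. Among other genes of at least 1 kb, 29.2% were marked in both replicates, and among those with a gene-class symbol 32.1% were. With only the top 50% of each list by score, 24 members were marked in both replicates, against 19.8% of the other genes. Coverage was the same in both replicates for 20 members: the 19 covered whole in both, and spo-11 with 0% in both. It was higher in replicate 1 for 16 members and higher in replicate 2 for 4. The replicate 1 peaks covered more of the genome, 16.7 Mb against 13.1 Mb, and this split was not counted for other genes.

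**Figure D1:**
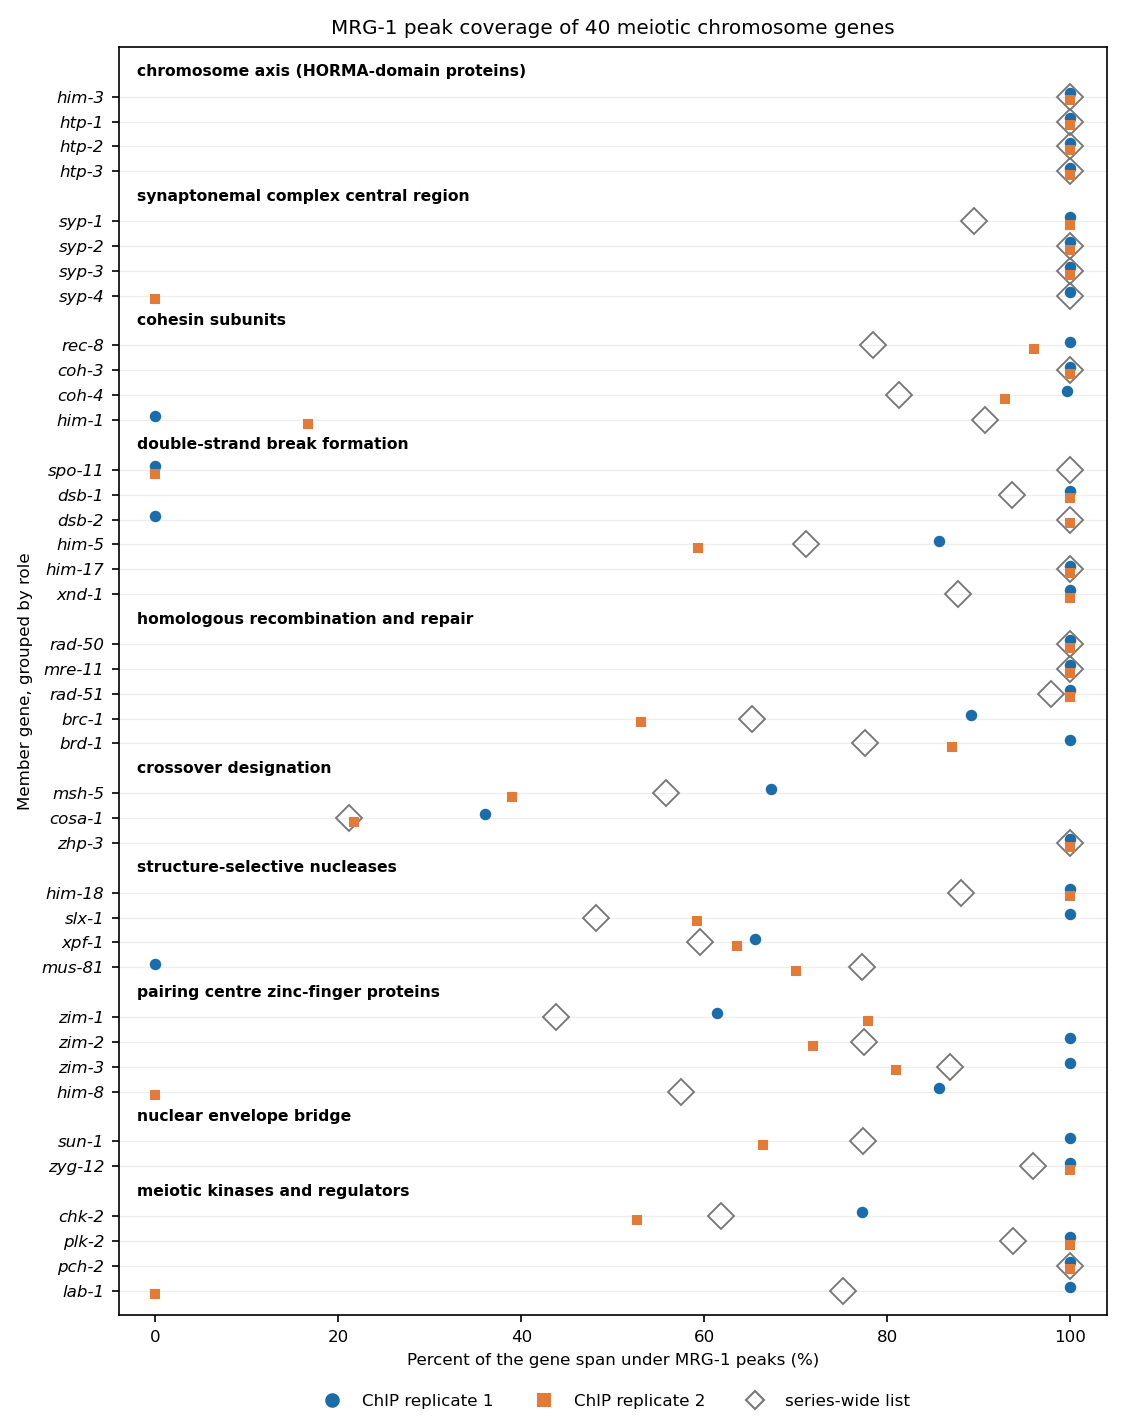
Percent of each member's span under MRG-1 peaks (x axis) for the 40 genes (y axis), grouped by role, with a circle for ChIP replicate 1, a square for ChIP replicate 2 and an open diamond for the series-wide list. Many points sit at 100%, and the points at 0% belong to syp-4, him-1, spo-11, dsb-2, mus-81, him-8 and lab-1.

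All 4 axis genes were covered end to end in every list. HIM-3, HTP-1, HTP-2 and HTP-3 are HORMA-domain proteins of the chromosome axis, to which HTP-3 recruits the others. For him-3, coverage was 100% in each replicate and 100% series-wide. The peak over it ran from 6973632 to 6979487 of IV in replicate 1 and from 6973786 to 6979614 in replicate 2, and it also met pgl-1, which encodes a P granule protein, and prkl-1. Its edges differed by 154 bp at the left and 127 bp at the right between the replicates. For the 24 members with exactly 1 peak in each replicate, the edges differed by medians of 663.5 bp and 794.5 bp, and for 9 of them both edges lay within 1 kb. Over htp-3 the peak was 10396 bp wide in replicate 1 and 5862 bp in replicate 2. The paralogs htp-1 and htp-2 lie apart on IV, and each was covered to 100% in all lists. Such close copies can share reads, and how reads with several matches were treated is not given in the sources used here. Their peaks did not end at the genes: the htp-1 peak met 6 genes and the htp-2 peak met 5 genes, in each replicate.

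The synaptonemal complex genes were covered to 100% in both replicates with 1 exception. SYP-1, SYP-2, SYP-3 and SYP-4 form the central region that joins the paired axes. For syp-1, syp-2 and syp-3, coverage was 100% in each replicate, and the series-wide list covered syp-1 to 89.4% and the other two to 100%. For syp-4, coverage was 100% in replicate 1, 0% in replicate 2 and 100% series-wide. The replicate 1 peak over syp-4, from 6846739 to 6858243 of I, held the score 3100, a value that 554 peaks of that list share, and also met glh-1, which encodes a P granule helicase. Replicate 2 had no peak from 6843299 to 6901862 of I, a stretch of 58564 bp of which replicate 1 covered 22.8% and the series-wide list 19.6%.

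Among cohesin genes, the 3 kleisins were almost fully covered in both replicates and the SMC subunit was not, whereas the series-wide list covered the SMC subunit more than rec-8 and coh-4. REC-8, COH-3 and COH-4 are the meiotic kleisins, the subunits that close the cohesin ring, and him-1 encodes the SMC1 subunit, which cohesin also uses in mitosis. For rec-8, coverage was 100% in replicate 1, 96.0% in replicate 2 and 78.4% series-wide. For coh-3 it was 100% in every list. For coh-4, the paralog of coh-3 elsewhere on V, it was 99.7%, 92.9% and 81.3% in the same order. These paralogs carry the same limit on shared reads as htp-1 and htp-2. For him-1, replicate 1 had 0%, replicate 2 had 16.7% and the series-wide list had 90.6%. The only replicate 2 peak over him-1, at 4951914 to 4952933 of I, lay inside the gene, while the nearest replicate 1 peak was 14648 bp away.

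Of the genes for making double-strand breaks, 4 of 6 were marked in both replicates, against 28.0% of the other autosomal genes. The roles hold few genes each, and they were not compared with one another. SPO-11 is the topoisomerase-like enzyme that cuts the DNA, DSB-1 and DSB-2 are needed for normal numbers of breaks, HIM-5 promotes breaks chiefly on X, HIM-17 is a chromatin-associated factor for break formation, and XND-1 is an autosome-associated protein that shapes where crossovers form. Among them, dsb-1, him-17 and xnd-1 were covered to 100% in both replicates. For him-5, the values were 85.7% in replicate 1, 59.3% in replicate 2 and 71.1% series-wide. Its peaks were narrow, at 2153 bp and 1203 bp, and the gene on its left, D1086.5, had 0% in both replicates. The gene on its right, D1086.3, met the same replicate 1 peak, with 6.53% covered, and had 0% in replicate 2. For dsb-2, replicate 1 had 0%, replicate 2 had 100% and the series-wide list had 100%, and the nearest replicate 1 peak was 28475 bp away. For spo-11 the values were 0%, 0% and 100%. Its nearest peak was 10586 bp away in replicate 1 and 8042 bp in replicate 2, so the mark on this gene rests on the series-wide list alone. The series-wide peak over spo-11 was 15287 bp wide and met 6 genes, so it cannot be assigned to spo-11 alone. The spans of 13 members, spo-11 among them, overlap that of another protein-coding gene. Within the shared bases, a peak cannot be assigned to either gene.

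All 5 repair genes were marked in both replicates, against 28.0% of the other autosomal genes. MRE-11 and RAD-50 process broken ends, RAD-51 is the strand-exchange recombinase, and BRC-1 and BRD-1 are the worm BRCA1 and BARD1 proteins. For rad-50, mre-11 and rad-51, coverage was 100% in each replicate. For brd-1 it was 100% in replicate 1 and 87.0% in replicate 2. For brc-1, the longest member at 9880 bp, it was 89.2% in replicate 1, 53.1% in replicate 2 and 65.2% series-wide, the lowest of this group by the mean of the replicates.

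The crossover designation genes were all marked in both replicates, against 28.0% of other genes, but cosa-1 and msh-5 only over part of their length. MSH-5 is a MutS protein that stabilises crossover intermediates, and COSA-1 and ZHP-3 mark the sites that become crossovers. For zhp-3, coverage was 100% in every list. For msh-5 it was 67.3% in replicate 1, 39.03% in replicate 2 and 55.8% series-wide. For cosa-1 it was 36.1%, 21.7% and 21.2% in the same order, and no other member marked in both replicates had so little of its span covered by their mean. The cosa-1 peak lay over its left end in both replicates, from 2722314 to 2728118 of III and from 2725774 to 2727318.

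Of the nuclease genes that resolve crossover intermediates, 3 of 4 were marked in both replicates, against 28.0% of the other autosomal genes. HIM-18 is the SLX-4 scaffold, and SLX-1, XPF-1 and MUS-81 are nucleases or nuclease subunits. For him-18, coverage was 100% in both replicates. For slx-1 it was 100% in replicate 1 and 59.2% in replicate 2. The replicate 1 peak over slx-1 was 28771 bp wide and met 7 genes, yet its score lay at percentile 1.44 of that list. For xpf-1 the values were 65.5% and 63.6%. For mus-81, replicate 1 had 0%, replicate 2 had 70.1% and the series-wide list had 77.3%. The replicate 2 peak over mus-81, from 4265746 to 4273114 of I, held the score 3100, which 272 peaks of that list share.

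The 4 pairing centre genes lie side by side on IV, and peaks ran across the cluster with an edge at or near him-8. ZIM-1, ZIM-2, ZIM-3 and HIM-8 are zinc-finger proteins that bind the pairing centres of particular chromosomes, HIM-8 that of X. In replicate 1, 1 peak from 10552364 to 10563677 met all 4 genes and no other protein-coding gene. Coverage in replicate 1 was 61.3% for zim-1, 100% for zim-2, 100% for zim-3 and 85.7% for him-8. In replicate 2 it was 77.9%, 71.8%, 80.9% and 0% in the same order. The last replicate 2 peak ended at 10560911, 994 bp short of him-8, which is more than the 200 bp allowed for between builds. The series-wide list covered him-8 to 57.4%. In the replicates the scores were low to middling, with the shared replicate 1 peak at percentile 14.8 and the highest replicate 2 peak at 64.7. In the series-wide list they reached higher, with percentile 90.9 for the peak over zim-1 and zim-2 and 83.8 for the one over zim-3 and him-8. The flanking genes svct-1 and efn-2 had 0% in both replicates.

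The remaining 6 members act at the nuclear envelope or as regulators. SUN-1 and ZYG-12 form the bridge through the nuclear envelope that moves chromosomes during pairing. For sun-1, coverage was 100% in replicate 1 and 66.4% in replicate 2, and for zyg-12 it was 100% in both, under a peak that met 12 genes in replicate 1 and 9 in replicate 2. The replicate 1 peak over zyg-12 was 25288 bp wide with a score at percentile 1.48. CHK-2 and PLK-2 are kinases that start and drive pairing, PCH-2 is an ATPase that remodels HORMA-domain proteins, and LAB-1 protects cohesion on part of each chromosome. For plk-2 and pch-2, coverage was 100% in both replicates. For chk-2 it was 77.2% and 52.6%. For lab-1, replicate 1 had 100%, replicate 2 had 0% and the series-wide list had 75.2%, and replicate 2 had no peak from 9632021 to 9687263 of I.

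By chromosome, members marked in both replicates ran from 5 of 9 on I to all on III and V. On V, where 16.0% of the other protein-coding genes were marked in both replicates, all 10 members were. On III, all 5 members were marked in both, against 39.7% of the others. On IV, 10 of 12 were, against 26.9%, and on II 3 of 4, against 28.0%. On I it was 5 of 9, against 39.4%, and each replicate taken by itself marked 7 of the 9, against 46.4% and 46.7%. Of the 31 members in chromosome centres, the middle 50% of each chromosome, 25 were marked in both replicates (80.6%), against 32.9% of other genes there. In the arms it was 8 of 9 (88.9%), against 21.9%. Of the members 77.5% lay in centres, against 55.4% of other genes.

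**Figure D2:**
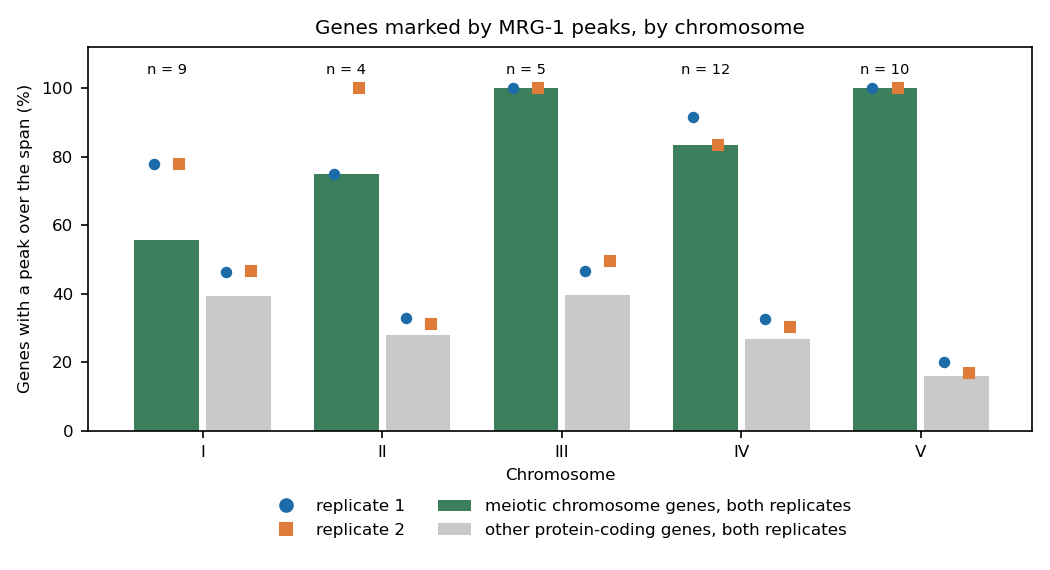
Percent of genes with a peak over the span (y axis) by chromosome (x axis), for the members (green bars, number of genes above) and all other protein-coding genes (grey bars). Bars give genes marked in both replicates, circles replicate 1 and squares replicate 2; on V all 10 members were marked, against 16.0% of the other genes.

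Coverage was highest within the spans and fell away on both sides, without reaching the level of other genes within 3 kb. Averaged over members in replicate 1, between 80.0% and 90.0% of each position along the scaled span was under peaks, and at the outer edge of the flanks 53.2% on the left and 42.5% on the right. In replicate 2 the span stood between 67.5% and 84.8%, and the outer flanks at 44.0% and 28.8%. Other genes were nearly level, between 22.8% and 27.5% in replicate 1 and between 19.9% and 24.2% in replicate 2. The gene table gives no strand, so left and right follow the chromosome and not the direction of transcription. The planned count of peaks at gene starts was not run for this reason. A peak within 250 bp outside either end of the span was present for 36 members in replicate 1 and 34 in replicate 2, against 34.1% and 32.1% of the other genes.

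**Figure D3:**
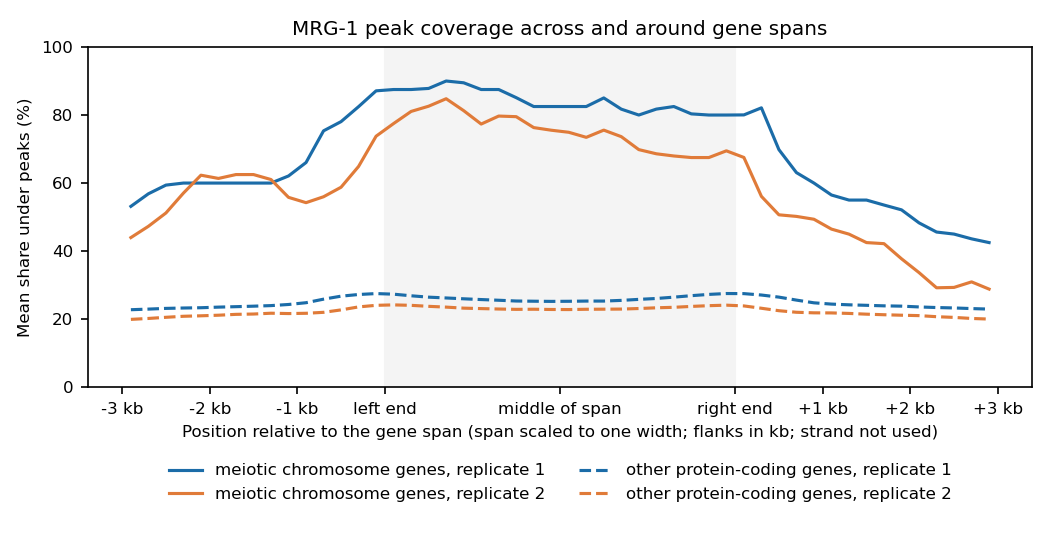
Mean share of bases under peaks (y axis) along the gene span, scaled to a common width, and in 3 kb flanks (x axis), left to right along the chromosome. Solid lines are the 40 members and dashed lines all other protein-coding genes, blue for replicate 1 and orange for replicate 2; the members stay between 67.5% and 90.0% inside the span.

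The peaks over members had a greater median width and score rank than peaks over other genes, and in the replicates most met more than 1 gene. In replicate 1, 37 peaks met a member, with a width of 10096 bp at the median, against 4782 bp for the 2501 autosomal peaks that met any other gene. In replicate 2, 45 peaks met a member, with a median of 4476 bp against 2271 bp. The peaks over other genes are nearly all autosomal peaks, 2501 of 2578 in replicate 1 and 3675 of 3858 in replicate 2. A wide peak meets one of only 40 genes more easily, so the widths of peaks over members run high by this choice. The comparison of widths therefore cannot show a trait of the members. By the authors' score, the median percentile within the list was 68.0 and 72.2 for peaks over members, against 54.03 and 52.0 for peaks over other genes. Whether the same choice of peaks raises the score rank was not tested. A member's peak met a median of 4 genes in replicate 1 and 2 in replicate 2, the member included. In the series-wide list, whose peaks are narrower, the median was 1, and 56 of the 95 peaks over members met only 1 gene. The genes met were not counted for peaks over other genes, and a wider peak can meet more genes. Of the 74 non-member genes next to a member, 42 were marked in both replicates (56.8%), against 28.0% of all other autosomal genes. A gene beside a marked gene can share its peak, so this share runs high by position. Neighbours of other marked genes were not counted, so the difference cannot show a trait of the members' surroundings. Of the 33 members marked in both, 16 had both neighbours marked, 14 had 1 and 3 had none.

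Long members were marked in patches. Of the 9 members of at least 5 kb, 8 were marked in both replicates, but only rad-50 was covered whole in both, against 18 of the 31 shorter members. Whole cover was also less frequent among long genes that are not members: of the other autosomal genes, 41.1% of those of at least 5 kb were marked in both replicates and 1.54% were covered whole in both, while 14.6% of the shorter ones were covered whole. The other long members each kept a bare or thin stretch in the same place in both replicates, except coh-4 and him-1. Each span was cut into 5 equal parts from left to right. For him-1, replicate 1 had 0% in every part, so a shared bare stretch cannot be read there. Parts 3 to 5 of him-1 had 0% in replicate 2, but 95.6%, 100% and 100% in the series-wide list. Part 3 of chk-2 had 0% in both replicates, with part 5 at 100% in both. In zim-1, part 3 had 0% and 12.3%, between parts 1 and 5 at 100%. For xpf-1, msh-5 and cosa-1, part 1 was at 100% and part 5 at 0% in both replicates. In brc-1, part 4 was the least covered, at 45.8% and 11.1%, and parts 2 and 5 were at 100%.

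**Figure D4:**
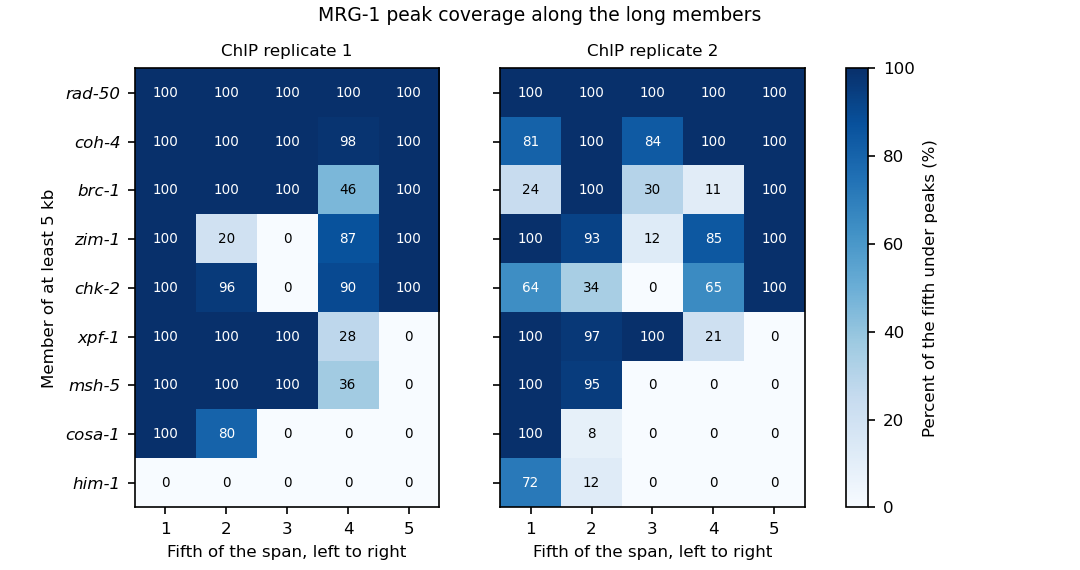
Percent under peaks (colour and number) for the 9 members of at least 5 kb (rows), each cut into 5 equal parts from left to right along the chromosome (columns), in each ChIP replicate. rad-50 is at 100% throughout, chk-2 is bare in part 3, and xpf-1, msh-5 and cosa-1 are bare in part 5.

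Each of the 7 members not marked in both replicates lay, by definition, in a stretch that at least 1 replicate list left without peaks. The series-wide list had peaks in every such stretch, since it marked all 40 members. The lengths of such stretches around other genes were not measured. Around mus-81, replicate 1 had no peak for 56460 bp, of which replicate 2 covered 40.2% and the series-wide list 39.01%. Around him-1 the replicate 1 stretch was 58144 bp, covered to 23.4% by replicate 2 and 41.4% by the series-wide list. Around dsb-2 it was 118457 bp, from 14322236 to 14440692 of II, covered to 40.03% by replicate 2 and 40.2% by the series-wide list. These stretches are long next to the genes, and hold 11, 14 and 20 whole protein-coding genes. In replicate 2, the stretch around lab-1 was 55243 bp, covered to 29.1% by replicate 1 and 24.9% by the series-wide list. The him-8 stretch was unlike these: it ran for 134286 bp to the right of the pairing centre cluster, and replicate 1 covered 2.24% of it and the series-wide list 1.498%. For spo-11 both replicates had such a stretch, of 64401 bp in replicate 1 and 21072 bp in replicate 2, and the series-wide list covered 57.1% and 78.2% of them. The replicate lists and the series-wide list came from different versions of the peak caller, and the part of the calling in these stretches was not tested.

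**Figure D5:**
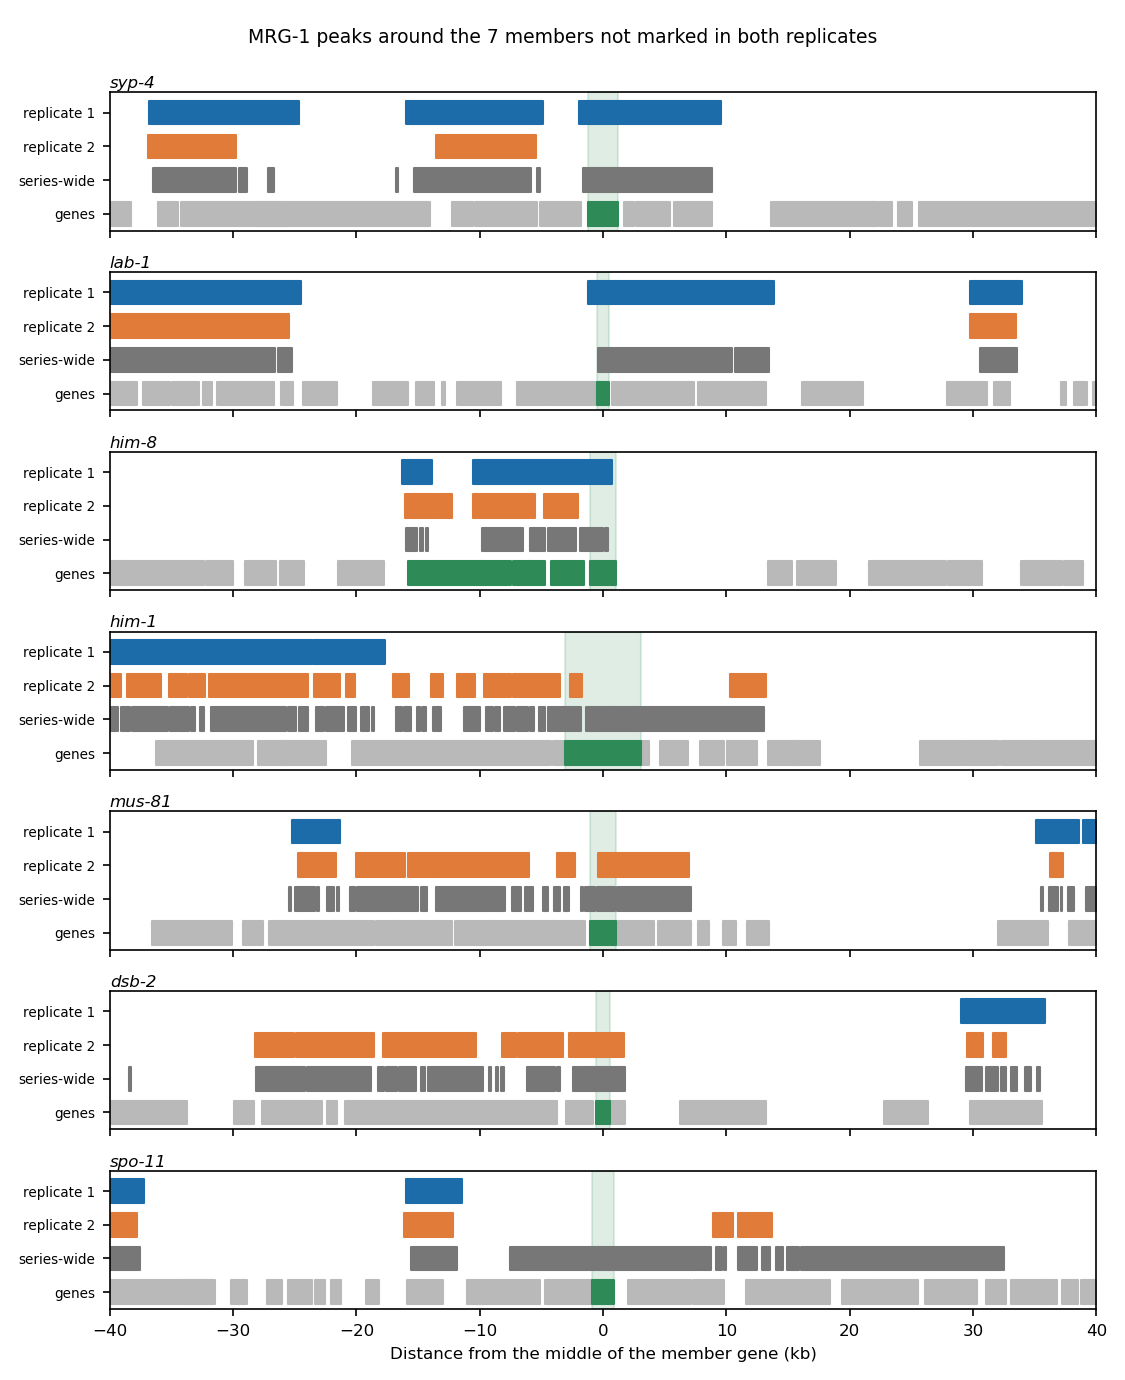
Peaks of replicate 1 (blue), replicate 2 (orange) and the series-wide list (grey) and gene spans (pale grey, members green) within 40 kb of each of the 7 members not marked in both replicates; the x axis is distance from the middle of the gene in kb. Peaks are on WS220 and genes on WBcel235, taken to differ by no more than about 200 bp. The series-wide list has a peak over all 7 genes.

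Of 49 further genes of meiosis that are not among the 40, most were marked too. This list holds other synaptonemal complex, cohesin, crossover and repair genes, and also genes of other kinds. Both replicates marked 41 (83.7%), against 28.0% of the 17201 other genes above, among which these 49 are counted. Replicate 1 marked 43, against 33.5%, replicate 2 marked 44, against 32.2%, and the series-wide list marked 47, against 36.3%. The whole span was covered in both replicates for 22 of the 49 (44.9%), against 12.6%. Their median span was 3512 bp, against 1944 bp, and a longer span meets a peak more readily. Marked in neither replicate were syp-6, a further synaptonemal complex protein, zhp-4, a partner of ZHP-3 in crossover designation, and rip-1, which works with a RAD-51 paralog. For syp-6 the series-wide list had 100%, as for spo-11, while zhp-4 and rip-1 had 0% in every list.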

How the data were processed

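ChIP and input DNA came from extracts fixed with 1% formaldehyde for 10 minutes, per the labels' protocols. The submitters' processing notes name BWA and the build ce10. WormBase WS220 is the build of the peaks, per the file headers, whose source column names MACS for the replicates and MACS v2 for the series-wide list. Thresholds, duplicate handling, use of the input and pooling: not given in the sources used here. The score of each peak was deposited by the authors without a definition, and served only to rank peaks within a list.

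Coverage of a gene is the percent of its span, from the WBcel235 RefSeq gene table, under at least 1 peak, and its marks follow the 1 bp rule. No position was converted between builds, and none of that table's coordinates are printed. Spans shifted by 200 bp stood in for the build difference, whose size was not checked on sequence. Coverage was checked on simulated peaks. The table has no strand and no sequence. Centres are the middle 50% of bases from 1 to the last peak end. Runs of strong replicate 2 peaks joined gaps of up to 1 kb and held a peak in the top 25% by score. The members, roles and lists were chosen with earlier results of these data known. Named genes were all members, genes sharing a named peak, and further meiotic genes marked in neither replicate. The neighbours svct-1, efn-2, D1086.5 and D1086.3 were named after their values were seen. Python 3.11.15, numpy 2.4.6, pandas 2.3.3 and matplotlib 3.10.9 were used. No test was run, so no p-values are given, and SDs over 2 samples cover these samples alone, which may be technical repeats.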

Additional observations from a re-analysis of the deposited data

How the results depend on the processing

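The mean share of members marked, 90.0%, was 85.0% when at least 50% of the span had to be covered, 71.3% with the top 50% of peaks by score and 100% with the series-wide list. Without replicate 1 or without replicate 2 it was 90.0%, and with spans widened or narrowed by 200 bp it was 90.0%. The share of other protein-coding genes, 32.8%, moved the same way: 24.2% with at least 50% of the span, 26.1% with the top 50% of peaks and 36.3% with the series-wide list. It was 33.9% and 31.6% with widened and narrowed spans, 34.2% for genes of at least 1 kb, 37.1% for genes with a gene-class symbol, 33.7% when weighted by the members on each chromosome, and 32.2% to 33.5% with a replicate left out. Members marked in both replicates numbered 33, and 24 with the top 50% of peaks, against 19.8% of other genes. The median coverage of members was 98.99% as the mean of the replicate medians, 88.2% with the top 50% of peaks, 90.0% in the series-wide list and 98.0% to 100% with a replicate left out. The share with a peak within 250 bp of either end, a measure chosen after seeing that the gene table has no strand, was 87.5%, 100% in the series-wide list and 85.0% to 90.0% with a replicate left out. For the 49 further meiotic genes the share of 88.8% became 73.5% with at least 50% of the span, 78.6% with the top 50% of peaks and 87.8% to 89.8% with a replicate left out. Fewer peaks, or a stricter overlap, can only lower these shares.

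No paired analysis was possible because no values of the inputs were analysed, and the 2 ChIP samples form a single group. The planned windows at gene starts were not run, since they need the strand. Depth is unknown, so a gene without a peak is not shown to lack MRG-1.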
